A study of Rattus norvegicus with 35 samples.

Results

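The 8 genes described here are endothelial markers and leukocyte adhesion receptors: Kdr, Flt1, Pecam1, Nos3, Thbd, Vwf, Icam1 and Vcam1. They were chosen by name, as all probe-sets whose only gene symbol in the array annotation is one of these. The rule itself uses no measured value, but the genes were chosen with earlier results of these data known. The rule found 17 of the 8740 probe-sets tested, which stand for 8 of 4736 genes: 6 probe-sets for Nos3, 2 each for Thbd, Vwf, Icam1 and Vcam1, and 1 each for Kdr, Flt1 and Pecam1. All 17 passed the filter on dim probe-sets that was tried as an alternative, so none is missing from the values below. The question asked was how much of these transcripts the 2 cell populations of the study held, as a sign of endothelial cells, and whether mechanical stress or radiation changed them.

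Ventricles of neonatal rats were separated by pre-plating into cultures enriched for cardiac myocytes (CM) and cultures of fibroblasts (FB), and RNA was hybridised to 35 Affymetrix rat GeneChips. The treated groups were cells under cyclic stretch for 24 h (MS), cells 24 h after 8.5 Gy of X-rays (IR) and cells 24 h after 10 J/m2 of UVC (UV). Their references were unstretched cells on the same collagen-coated plates, sham-IR cells and sham-UV cells. There were 3 arrays in each group, each from a numbered experiment, and 2 arrays of sham-UV CM. Each population is a mixture: CM-enriched cultures still held non-myocytes, and after IR and UV, but not after MS, the CM were passed through centrifugal elutriation at harvest, which the FB never were. By the study's own measurement, the share of CM was lowest in the MS cultures, higher in the IR fractions and highest in the UV fractions. The mixture thus differs between the 3 comparisons of CM with FB. The FB were also subcultured for longer and in another serum than the CM, so cell population, culture time and serum cannot be told apart. In such bulk RNA, fewer cells of a type and less RNA per cell cannot be told apart either.

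Endothelial cells line blood vessels and the inner surface of the heart. They are recognised by receptors for vascular endothelial growth factor (Kdr and Flt1), the junction protein Pecam1, the endothelial nitric oxide synthase Nos3, the thrombin receptor thrombomodulin (Thbd) and the clotting factor carrier Vwf. When inflammatory cytokines activate NF-kappaB, endothelium displays Icam1 and Vcam1, which hold leukocytes through their integrins, but both receptors are also made by fibroblasts and other stromal cells and so are weaker signs of endothelium.

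Values are normalised intensities, on a linear scale after scaling, a floor at 6.88 and quantile normalization. A value at the floor is a bound, and levels of different probe-sets are not set against each other. Differences are on the log2 scale with their standard error (SE) from limma, and adjusted p is by Benjamini-Hochberg over all 8740 probe-sets, with 0.05 as threshold. A p that misses it does not show that levels were alike. The deposited trimmed mean of an array lay between 195 and 197 on 26 arrays and between 977 and 982 on 9, the 9 being all CM arrays of the IR experiments, sham-UV CM array 2 and UV CM arrays 2 and 3. The floor held 14.5% to 24.7% of an array. The cardiac myocyte markers (16 of 18 listed on the array) summed to between 44189 and 78682 over the CM groups and between 4190 and 30831 over the FB groups.

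The 2 FB arrays of IR experiment 3 stood apart from all others. On both the irradiated and the sham-IR array, 124 probe-sets were more than 4-fold above the highest value of the other 2 experiments of their set, against 0 to 18 probe-sets in any other experiment. Icam1 and Vcam1 were among them, and results that rest on these arrays are given with and without them. In IR experiment 1 of the CM, Pecam1 and Nos3 were likewise highest on both arrays.

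Pecam1, Kdr and some probe-sets of Nos3 were higher in untreated CM than in untreated FB. Pecam1, a homophilic junction protein of endothelium that platelets and leukocytes also carry (probe-set U77697_at), had intensities of 188, 276 and 229 in unstretched CM, against 27.1, 8.54 and 18.7 in unstretched FB. In the sham-IR groups Pecam1 had 1324, 332 and 319 in CM and 12.7, 21.3 and 32.2 in FB. In the sham-UV groups it had 372 and 44.2 in CM and 22.1, 15.0 and 17.9 in FB. The lowest untreated CM array thus lay above the highest untreated FB array, and experiment 1 was the highest of the sham-IR and of the sham-UV CM arrays. The log2 difference was 3.81 (SE 0.73, adjusted p = 4.58e-04) on unstretched plates, 4.66 (SE 0.73, adjusted p = 2.73e-05) for sham-IR and 2.82 (SE 0.82, adjusted p = 0.0126) for sham-UV, which is 14.0-, 25.2- and 7.07-fold. Single experiments decided 2 of these calls: the sham-UV difference was 1.43 (adjusted p = 0.179) without replicate 1 and 2.81 (adjusted p = 0.0585) without replicate 3, and the unstretched difference was 3.22 (adjusted p = 0.0521) without replicate 2.

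Kdr, the main signalling receptor for vascular endothelial growth factor (U93306_at), was at or near the floor throughout the FB. Its intensities were 39.5, 48.4 and 112.5 in unstretched CM, against 6.88, 17.5 and 12.5 in unstretched FB. Sham-IR CM had 265, 212 and 207 and sham-IR FB had 8.60, 6.88 and 6.88. Sham-UV CM had 49.0 and 38.6 and sham-UV FB had 12.003, 9.05 and 7.44. No CM array overlapped an FB array, and the sham-IR fractions were the highest of the untreated CM. The log2 difference between CM and FB was 2.39 (SE 0.44, adjusted p = 2.85e-04) on unstretched plates, 4.93 (SE 0.44, adjusted p = 9.11e-09) for sham-IR and 2.22 (SE 0.49, adjusted p = 0.00133) for sham-UV. These are 5.22-, 30.5- and 4.67-fold, with 1 unstretched and 2 sham-IR FB arrays at the floor, and with a floor at the 40th percentile the sham-UV difference was 0.83 (adjusted p = 0.16). For IR, all CM arrays had the higher deposited trimmed mean and all FB arrays the lower, so population and deposited scale cannot be told apart there, while all unstretched arrays had the lower one.

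**Figure D1:**
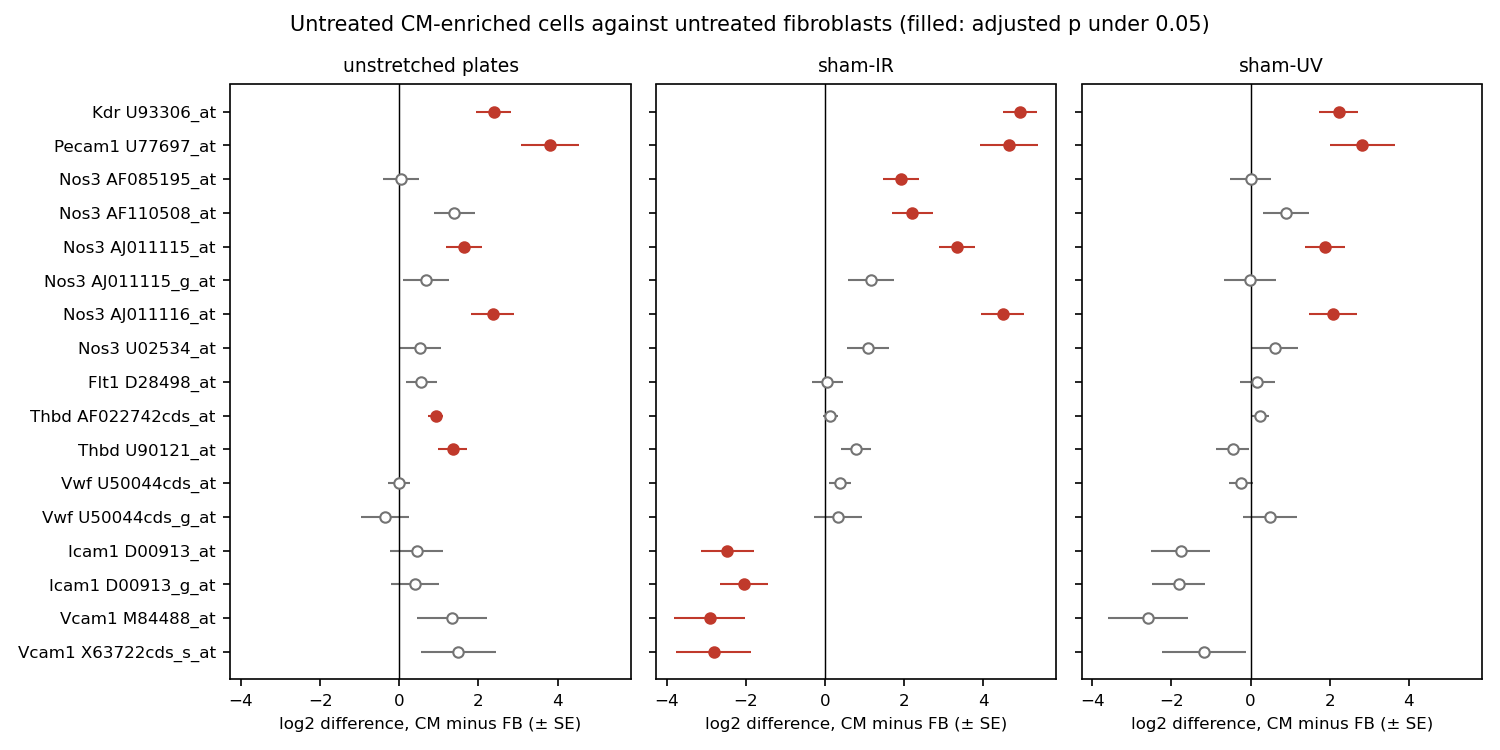
Log2 difference of each of the 17 probe-sets between untreated CM and untreated FB (x axis, CM minus FB, with SE bars) on unstretched plates, after sham-IR and after sham-UV. Filled points have an adjusted p under 0.05: Kdr and Pecam1 lie to the right in all 3 panels, and Icam1 and Vcam1 lie to the left in the sham-IR panel.

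Nos3, which makes nitric oxide in endothelium and to a lesser extent in cardiac myocytes, followed the same order on the probe-sets that separated the populations. AJ011116_at had 327, 95.5 and 119.7 in sham-IR CM and was at the floor on all 3 sham-IR FB arrays, so that the log2 difference of 4.50 (SE 0.54, adjusted p = 8.93e-07) stands for at least 22.6-fold. The same probe-set had 32.8, 43.8 and 70.7 in unstretched CM, against 6.88, 10.2 and 10.7 in unstretched FB (2.36, SE 0.54, adjusted p = 0.0025), and 64.3 and 14.5 in sham-UV CM, against 6.88, 7.77 and 6.88 in sham-UV FB (2.09, SE 0.61, adjusted p = 0.0128). AJ011115_at passed in all 3 comparisons too, with log2 differences of 1.64, 3.34 and 1.89 for unstretched, sham-IR and sham-UV cells. AF110508_at (2.20, adjusted p = 0.00234) and AF085195_at (1.92, adjusted p = 0.00239) passed for sham-IR alone, and AJ011115_g_at and U02534_at passed in none. The probe-sets of Nos3 thus disagree, and AJ011116_at, AJ011115_at and AF085195_at stood at the floor on 9, 17 and 27 of the 35 arrays. Calls of AJ011115_at did not pass without replicate 2 on unstretched plates (adjusted p = 0.216) and without replicate 1 or 2 for sham-UV (adjusted p = 0.151 and 0.0995). Those of AJ011116_at did not pass without replicate 3 on unstretched plates (adjusted p = 0.082) and without replicate 1 or 3 for sham-UV (adjusted p = 0.122 and 0.0932), nor did AF110508_at without replicate 1 (adjusted p = 0.0608) or AF085195_at without replicate 2 (adjusted p = 0.0822) for sham-IR.

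Thbd, which turns thrombin into an activator of protein C, was higher in CM on unstretched plates. AF022742cds_at had 229, 318 and 213 in unstretched CM and 134, 137 and 124 in unstretched FB, groups that did not overlap (log2 difference 0.92, SE 0.19, adjusted p = 8.64e-04). U90121_at gave 1.35 (SE 0.37, adjusted p = 0.0103) in the same comparison. Without replicate 2 the adjusted p of AF022742cds_at was 0.0635, and that of U90121_at was 0.12 without replicate 1 and 0.129 without replicate 3. For sham-IR and sham-UV neither Thbd probe-set passed, with log2 differences between -0.45 and 0.78.

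Flt1, a receptor that binds vascular endothelial growth factor with high affinity and signals weakly, did not separate the populations: its lowest, median and highest intensities were 42.9, 70.0 and 81.0 in untreated CM and 41.1, 56.8 and 89.1 in untreated FB. The log2 differences were 0.55 (adjusted p = 0.35), 0.06 (adjusted p = 1) and 0.17 (adjusted p = 0.917) for unstretched, sham-IR and sham-UV cells. Vwf, the carrier of factor VIII that endothelium stores, was dim everywhere. U50044cds_g_at spanned 6.88 to 47.1 in untreated CM and 6.88 to 35.7 in untreated FB, U50044cds_at was at the floor on 23 of 35 arrays, and no difference of either passed. The classical endothelial genes Tek, Tie1, Cdh5, Eng, Esam, Emcn and Cldn5 have no probe-set under these symbols in the array annotation, so among the classical markers the sign of endothelial RNA in CM rests on Pecam1, Kdr and some probe-sets of Nos3. Of the 6 probe-sets of Nos3, 4 were called higher for sham-IR, and 2 each on unstretched plates and for sham-UV.

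**Figure D2:**
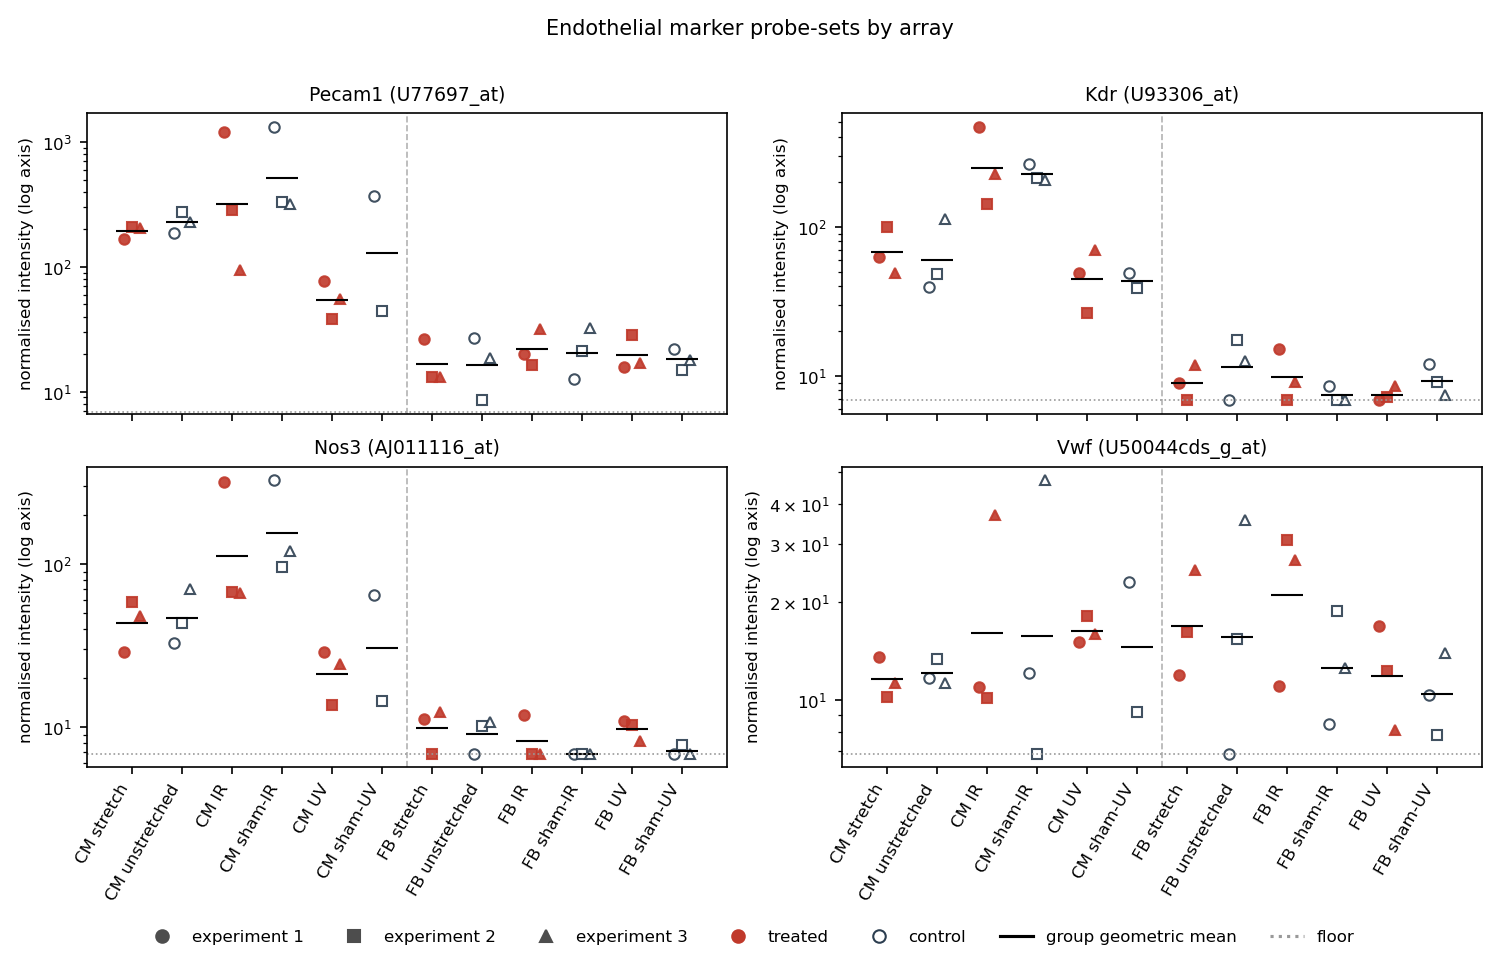
Normalised intensity (log axis) of 1 probe-set each of Pecam1, Kdr, Nos3 and Vwf on every array, by group, with the symbol giving the experiment, filled points treated and open points control. Bars are geometric means of a group and the dotted line is the floor of 6.88: Pecam1 and Kdr of CM lie above all FB arrays, and Vwf overlaps throughout.

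In all, 6, 10 and 4 of the 17 probe-sets passed in the unstretched, sham-IR and sham-UV comparisons of CM with FB, where 23.4%, 25.6% and 23.1% of all probe-sets did. The median log2 difference of the 17 was 0.92, 0.78 and 0.17, against a median of 0 over all probe-sets. The share of probe-sets called was therefore above the background for unstretched and sham-IR cells and near it for sham-UV cells, and no test of this share was made. All calls on unstretched plates and for sham-UV were higher in CM. Of the 10 for sham-IR, 6 were higher in CM, 4 of them probe-sets of Nos3, and 4 were lower, those of Icam1 and Vcam1. Probe-sets of the same gene are not separate members.

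Other endothelial genes were read from a list of 44, of which 17 are on the array, each by its brightest probe-set. Shares over all probe-sets include dim ones, so they are only a rough reference for such lists. Against FB, 6 of the 17 were higher and 1 lower in unstretched CM. In sham-IR CM 9 were higher and 4 lower, and in sham-UV CM 3 were higher and 3 lower. Of all probe-sets, 10.5%, 12.4% and 11.2% were higher in these comparisons and 12.8%, 13.2% and 11.9% lower. The list medians were 0.83, 0.90 and 0.12, against 0 over all probe-sets. Aqp1, a water channel of capillary endothelium, was higher in sham-IR CM (4.04, adjusted p = 4.55e-05) and sham-UV CM (4.16, adjusted p = 1.47e-04). Lyve1, a hyaluronan receptor of lymphatic endothelium and some macrophages, was higher in all 3 (1.90, 3.17 and 1.87). Icam2, which endothelium displays at rest, had 338, 60.2 and 33.95 in sham-IR CM, against 8.99, 6.88 and 7.90 in sham-IR FB (3.49, adjusted p = 7.9e-05). Egfl7, a matrix protein secreted by endothelium, was higher on unstretched plates (2.79) and for sham-IR (3.98), with 375, 143 and 249 in sham-IR CM and 6.88, 47.0 and 10.5 in sham-IR FB. Ace, the angiotensin-converting enzyme of the endothelial surface, was higher in all 3 (1.93, 1.49 and 1.31), and the gap junction protein Gja4 of arterial endothelium on unstretched plates and for sham-IR (3.57 and 3.06). Gja5, another gap junction protein of arterial endothelium and the conduction system, was higher in the same 2 comparisons (0.83 and 0.55). Other genes of the list were lower in CM. Klf4, a transcription factor that endothelium and other cells use, was lower for sham-IR (-1.03, adjusted p = 0.00134) and for sham-UV (-1.72, adjusted p = 2.14e-05), the smallest adjusted p of the list there. Tfpi, an inhibitor of tissue factor, was lower for sham-IR and sham-UV (-1.24 and -0.89), and Acvrl1, a receptor of endothelial BMP signalling, for sham-IR (-1.35). Edn1, the precursor of endothelin-1, which endothelium and cultured fibroblasts both make, was lower in all 3 comparisons (-1.99, -1.46 and -1.57).

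Markers of other cell types were read as well. Of the platelet markers (3 of 4 listed on the array), the chemokine Pf4 had a median of 425 over the CM arrays and 66.2 over the FB arrays. The other platelet markers had like medians in CM and FB, Itga2b 47.3 and 44.3, and Gp5 16.1 and 16.8. Together the 3 summed to between 173 and 1414 in CM and between 93.7 and 336 in FB, ranges that overlapped. The macrophage and leukocyte markers (10 of 17 on the array) summed to between 248 and 585 in CM and between 295 and 690 in FB, with Cd74 at the floor on 31 of 35 arrays and C1qb on 32. The part of platelets in the Pecam1 level was not tested.

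Icam1 and Vcam1, the adhesion receptors, were lower in CM than in FB in the sham-IR comparison. Icam1 (D00913_at) had 65.6, 125 and 132 in sham-IR CM, against 255, 270.0 and 2674 in sham-IR FB. The log2 difference was -2.47 (SE 0.67, adjusted p = 0.00739), and -2.05 (SE 0.60, adjusted p = 0.0123) on D00913_g_at. Vcam1 (M84488_at) had 70.9, 58.1 and 72.0 in sham-IR CM, against 197, 199.99 and 3217 in sham-IR FB, a log2 difference of -2.91 (SE 0.89, adjusted p = 0.0171), with -2.81 (SE 0.95, adjusted p = 0.0293) on X63722cds_s_at. The groups did not overlap on any of the 4 probe-sets, but the third FB experiment lay far above the others. Without the 2 FB arrays of that experiment all 4 still passed at smaller sizes: Icam1 was at -1.35 (adjusted p = 1.07e-04) and -1.06 (adjusted p = 0.00222), and Vcam1 at -1.57 (adjusted p = 0.0206) and -1.27 (adjusted p = 0.0345). Without replicate 3 of all groups, the Icam1 differences were -1.53 (adjusted p = 0.00184) and -1.33 (adjusted p = 0.00125), and those of Vcam1 -1.62 (adjusted p = 0.0809) and -1.15 (adjusted p = 0.181). With a replicate block on control arrays, the adjusted p of Vcam1 was 0.0529 and 0.11. Without replicate 1 or 2, Icam1 D00913_at was at -2.73 and -3.16 (adjusted p = 0.0794 and 0.0511) and Vcam1 M84488_at at -3.62 and -3.49 (adjusted p = 0.055 and 0.108), and without the CM arrays of IR experiment 1, Icam1 D00913_g_at was at -1.76 (adjusted p = 0.0685).

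In the sham-UV and unstretched groups the result depended on those same 2 FB arrays, through the spread that all groups share in the fit. Icam1 (D00913_at) had 60.2 and 75.1 in sham-UV CM, against 220.3, 276 and 196 in sham-UV FB (-1.76, SE 0.75, adjusted p = 0.0992), and Vcam1 (M84488_at) had 13.3 and 8.93, against 80.2, 54.5 and 64.6 (-2.59, adjusted p = 0.0647). Neither pair of groups overlapped. With the arrays of FB IR experiment 3 left out, the differences of these same probe-sets passed (Icam1 -1.76, adjusted p = 4.74e-06, and Vcam1 -2.58, adjusted p = 3.56e-04). The other Vcam1 probe-set, X63722cds_s_at, gave a smaller difference for sham-UV in the fit over all arrays (-1.17, adjusted p = 0.523). On unstretched plates the sign of Vcam1 was the other way. M84488_at had 90.2, 278 and 274 in unstretched CM and 66.6, 89.2 and 72.6 in unstretched FB, and the difference was 1.33 (SE 0.89, adjusted p = 0.319), or 1.33 (adjusted p = 0.0293) without those 2 arrays. Icam1 differed there by 0.44 (adjusted p = 0.74).

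**Figure D3:**
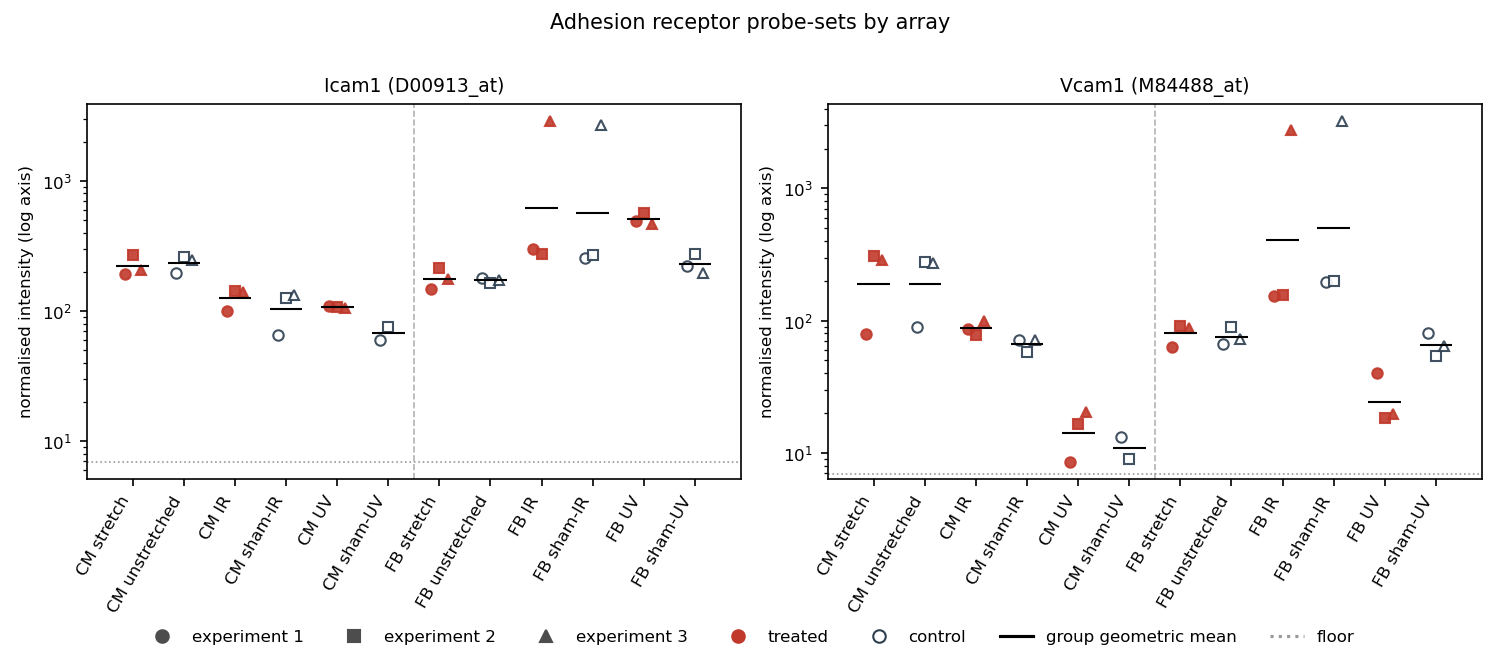
Normalised intensity (log axis) of Icam1 (D00913_at) and Vcam1 (M84488_at) on every array, by group, with the symbol giving the experiment, filled points treated and open points control, and bars at group geometric means. The irradiated and the sham-IR FB arrays of experiment 3 lie above all others for both genes, and the UV FB arrays lie above sham-UV for Icam1 and below it for Vcam1.

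Within CM, Vcam1 was higher in unstretched cultures on collagen plates than in the sham-irradiated fractions. The log2 difference from the mean of the sham-IR and sham-UV groups was 2.82 on M84488_at (SE 0.81, adjusted p = 0.0248), 7.05-fold. The other Vcam1 probe-set gave 2.25 (adjusted p = 0.0991) and Icam1 1.49 and 1.64 (adjusted p = 0.132 and 0.0521). M84488_at was thus the only 1 of the 17 probe-sets to pass, where 10.3% of all probe-sets did. Its reference groups were unlike. Geometric means of M84488_at were 190 in unstretched CM, 66.7 in sham-IR CM and 10.9 in sham-UV CM, the last from 2 arrays. The 7.05-fold is therefore larger than the difference from sham-IR CM alone, which was not tested. On X63722cds_s_at the reference groups were closer, with 282, 65.5 and 53.7 in the same order. Without the 2 arrays of FB IR experiment 3, Icam1 and Vcam1 passed on all 4 probe-sets (adjusted p of Icam1 7.8e-06 and 5.12e-06, of X63722cds_s_at 1.37e-04 and of M84488_at 4.02e-05). The call of M84488_at did not pass with a replicate block on control arrays (2.74, adjusted p = 0.0963), with a floor at the 40th percentile (2.23, adjusted p = 0.0795), on log2(value + 16) with no floor (2.14, adjusted p = 0.0563), or without replicate 1 or 2 of all groups (adjusted p = 0.077 and 0.432). Plate, elutriation and experiment cannot be told apart in this comparison. Deposited scale differed along with them: all unstretched CM arrays had the lower trimmed mean, and all sham-IR CM arrays and sham-UV CM array 2 the higher one. The fibroblast markers (15 of 16 on the array) moved with the Vcam1 difference. They summed to between 41388 and 44029 in unstretched CM, against between 20127 and 27591 in sham-IR CM and between 14229 and 22760 in sham-UV CM. Their part in the Vcam1 difference was not tested. Kdr (-0.73, adjusted p = 0.294) and Pecam1 (-0.18, adjusted p = 0.992) did not pass. In FB the comparison of collagen plates with sham-irradiated cultures called none of the 17, with 2 at an unadjusted p under 0.05, where 4.18% of all probe-sets were called.

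The promoters of Icam1 and Vcam1 are shown because both genes were among the 124 raised probe-sets of FB IR experiment 3 and both moved after UV. Each line gives the 250 bases before the RefSeq transcription start of the rat genome GRCr8, 5′ to 3′ on the strand of the gene, with matches to 2 of the words described below, GGNNNTTCC and TATAAA, in capitals. They lie at chr8:27829595-27829844 on the plus strand (Icam1) and at chr2:206742784-206743033 on the minus strand (Vcam1).
Icam1: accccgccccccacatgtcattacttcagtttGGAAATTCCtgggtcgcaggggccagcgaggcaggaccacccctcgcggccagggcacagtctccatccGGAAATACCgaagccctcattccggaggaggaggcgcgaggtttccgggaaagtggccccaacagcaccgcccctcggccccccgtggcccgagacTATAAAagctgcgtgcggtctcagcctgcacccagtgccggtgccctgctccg
Vcam1: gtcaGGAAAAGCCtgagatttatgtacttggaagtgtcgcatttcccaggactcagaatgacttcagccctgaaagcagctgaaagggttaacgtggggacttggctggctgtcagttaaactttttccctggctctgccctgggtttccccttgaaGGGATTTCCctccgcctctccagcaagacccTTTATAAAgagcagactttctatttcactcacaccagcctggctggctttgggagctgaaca
The pattern GGNNNTTCC, N being any base, was searched for on both strands, its reverse complement being GGAANNNCC. It was chosen with the NF-kappaB elements known from these 2 genes in view, and 15.4% of 33469 rat promoter windows of RefSeq hold it. A match was not tested for binding, and the pattern does not cover every known element. In Icam1 it lay 218 to 210 bases before the start, where GGAAATTCC reads as a match on both strands, and, on the opposite strand, 149 to 141 bases before it. In Vcam1 it lay 93 to 85 bases before the start and, on the opposite strand, 246 to 238 bases before it. The TATA box TATAAA, which 12.9% of the windows hold on either strand, lay 53 to 48 bases before the Icam1 start and 60 to 55 bases before the Vcam1 start, where it overlaps its reverse complement TTTATA on bases 62 to 57. Icam1 also holds the GC box GGGCGG, on the opposite strand and left in lower case, 247 to 242 and 82 to 77 bases before its start, and Vcam1 does not hold it. Of the other members, Flt1, Kdr and Nos3 have an entry (5 of the 8 matched) and none of them holds GGNNNTTCC. Flt1 holds TATAAA 75 to 70 bases before its start and the GC box at 3 places, and Kdr and Nos3 hold the GC box GGGCGG alone of the 3 words, which 30.5% of the windows hold on either strand.

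FB IR experiment 3 was high for Icam1 and Vcam1 together with cytokines and chemokines. Icam1 had 2868 on its irradiated and 2674 on its sham-IR array, against 255 to 297 in experiments 1 and 2, a 10.1-fold difference between the means. Vcam1 (M84488_at) had 2778 and 3217 on the irradiated and the sham-IR array, against 153 to 199.99, a 17.0-fold difference. Among all probe-sets ordered by this difference, the 4 of Icam1 and Vcam1 had ranks 79, 102, 51 and 41. The interleukins Il6 (954 to 1495, against 12.3 to 17.6) and Il1b (M98820_at, 721 to 806, against 7.10 to 17.6), both inducers of an acute inflammatory response, lay higher on the same 2 arrays, as did the chemokine Ccl5 (2472 to 3167, at the floor in the others) and the neutrophil chemokine Cxcl2 (344 to 628, at the floor in the others). Kdr, Flt1 and Pecam1 were not among the 124: Kdr had 6.88 to 9.13 there, against 6.88 to 15.1, Flt1 52.3 to 56.1, against 37.2 to 70.0, and Pecam1 31.995 to 32.2, against 12.7 to 21.3. Because the irradiated and the sham-IR array were alike, the difference is not one between the treatments, and its cause was not tested.

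**Figure D4:**
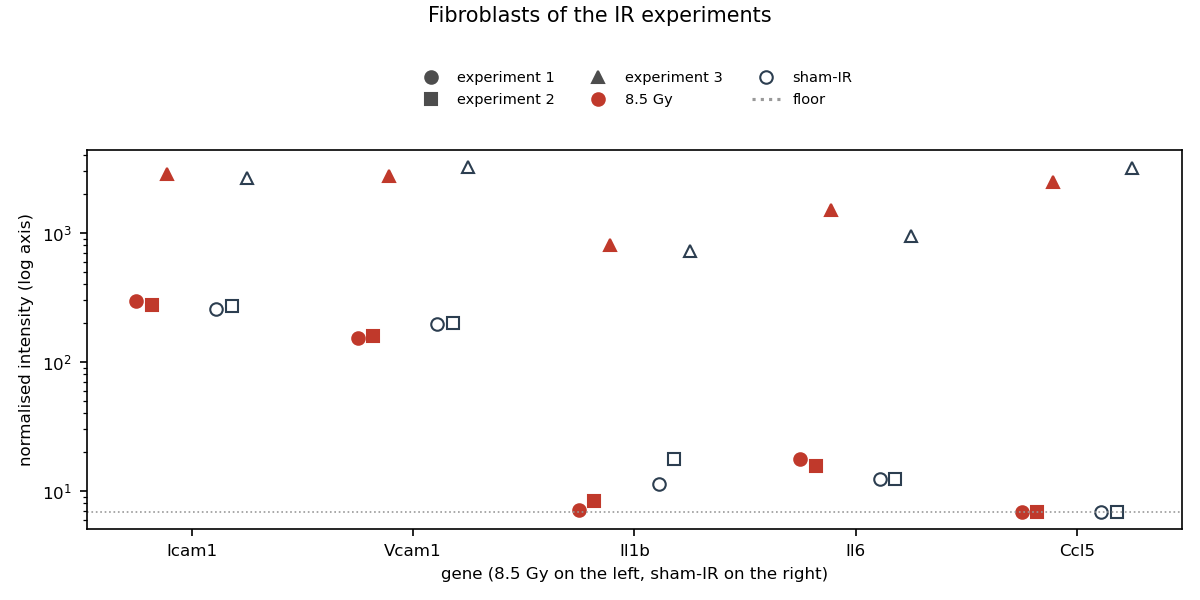
Normalised intensity (log axis) of Icam1 (D00913_at), Vcam1 (M84488_at), Il1b (M98820_at), Il6 (M26744_at) and Ccl5 on the FB arrays of the IR experiments, 8.5 Gy left and sham-IR right for each gene, the symbol giving the experiment. The points of experiment 3 lie above experiments 1 and 2 for all 5 genes, in both treatments.

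After UV, Icam1 rose in both populations and Vcam1 fell in FB. In FB, Icam1 (D00913_at) had 494, 564 and 469 after UV, against 220.3, 276 and 196 after sham-UV. All 3 UV arrays lay above all 3 sham-UV arrays, and each pair moved up, by 1.15 on the log2 scale (SE 0.12, adjusted p = 2.08e-05, 2.22-fold). D00913_g_at had 1498, 1448 and 1412 in UV FB and 663, 773 and 579 in sham-UV FB, a change of 1.12 (SE 0.11, adjusted p = 1.37e-05).

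Vcam1 (M84488_at) had 39.98, 18.3 and 19.8 in UV FB, against 80.2, 54.5 and 64.6 in sham-UV FB, and X63722cds_s_at had 63.5, 53.3 and 45.3, against 108, 137 and 120.5. Again the groups did not overlap, here with all 3 pairs moving down. The changes were -1.43 (SE 0.21, adjusted p = 3.27e-04) and -1.18 (SE 0.20, adjusted p = 9.05e-04). Thus 4 of the 17 probe-sets passed in FB, where 22.9% of all probe-sets did, a share near the background, and the other 13 lay between -0.71 and 0.53 on the log2 scale.

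These calls used the experiment as a block. Without it, adjusted p was 0.324 and 0.267 for Icam1 and 0.375 and 0.546 for Vcam1, with the changes themselves as above. With the block replaced by a random one, adjusted p was 0.106, 0.0748, 0.141 and 0.278. With the 2 arrays of FB IR experiment 3 left out as well as the block, all 4 passed (adjusted p = 3.07e-04 and 7.56e-04 for Icam1, 0.0289 and 0.0435 for Vcam1). Without replicate 3 of all groups, Vcam1 X63722cds_s_at was at -1.06 (adjusted p = 0.0649). Other cell markers moved with UV in FB: the cardiac myocyte markers (16 of 18 on the array) summed to between 9194 and 13038 in UV FB and between 22236 and 26078 in sham-UV FB, and the smooth muscle and pericyte markers (6 of 10) to between 3562 and 4853 in UV FB and between 7387 and 8208 in sham-UV FB. The fibroblast markers (15 of 16) were lower too, between 42659 and 49759 in UV FB and between 50882 and 55143 in sham-UV FB. Their part in the Icam1 and Vcam1 changes was not tested.

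In CM, where the fit uses 2 pairs since UV CM array 3 has no sham-UV partner, Icam1 (D00913_at) had 109.8, 108 and 105 after UV, against 60.2 and 75.1 after sham-UV. The groups did not overlap, and the change was 0.69 (SE 0.15, adjusted p = 0.00716, 1.62-fold), with 0.56 (SE 0.14, adjusted p = 0.0166) on D00913_g_at. Without the block the adjusted p was 0.74 and 0.719. Leaving out replicate 1 or 2 leaves 1 pair. The change of D00913_at was then 0.51 without replicate 1, and that of D00913_g_at was 0.24 without replicate 2. Without replicate 3 the change of D00913_g_at was 0.55 (adjusted p = 0.0576). Vcam1 (M84488_at) had 8.51, 16.4 and 20.5 in UV CM, against 13.3 and 8.93 in sham-UV CM, with 1 pair up and 1 down (0.12, SE 0.26, adjusted p = 0.913). Other cell markers moved with UV in CM as well: the cardiac myocyte markers (16 of 18 on the array) summed to between 58336 and 63729 in UV CM and between 73181 and 78682 in sham-UV CM, and the smooth muscle and pericyte markers (6 of 10) to between 3391 and 3769 in UV CM and between 5027 and 5697 in sham-UV CM. Their part in the Icam1 change, and in that of Nos3 given below, was not tested.

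The CM and FB changes after UV were then set against each other. For Vcam1 M84488_at the CM change exceeded the FB change by 1.55 on the log2 scale (SE 0.34, adjusted p = 0.0188), the only 1 of the 17 to pass, where 6.35% of all probe-sets did. It did not pass without the block (adjusted p = 0.697), with arrays scaled only (adjusted p = 0.106), or without replicate 3 (1.40, adjusted p = 0.184). Without replicate 2, which leaves 1 CM pair, the difference was 0.72. The other Vcam1 probe-set gave 0.96 (adjusted p = 0.108). For Icam1 the CM change was below the FB change by differences that did not pass, -0.46 and -0.57 (adjusted p of D00913_g_at 0.0925).

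**Figure D5:**
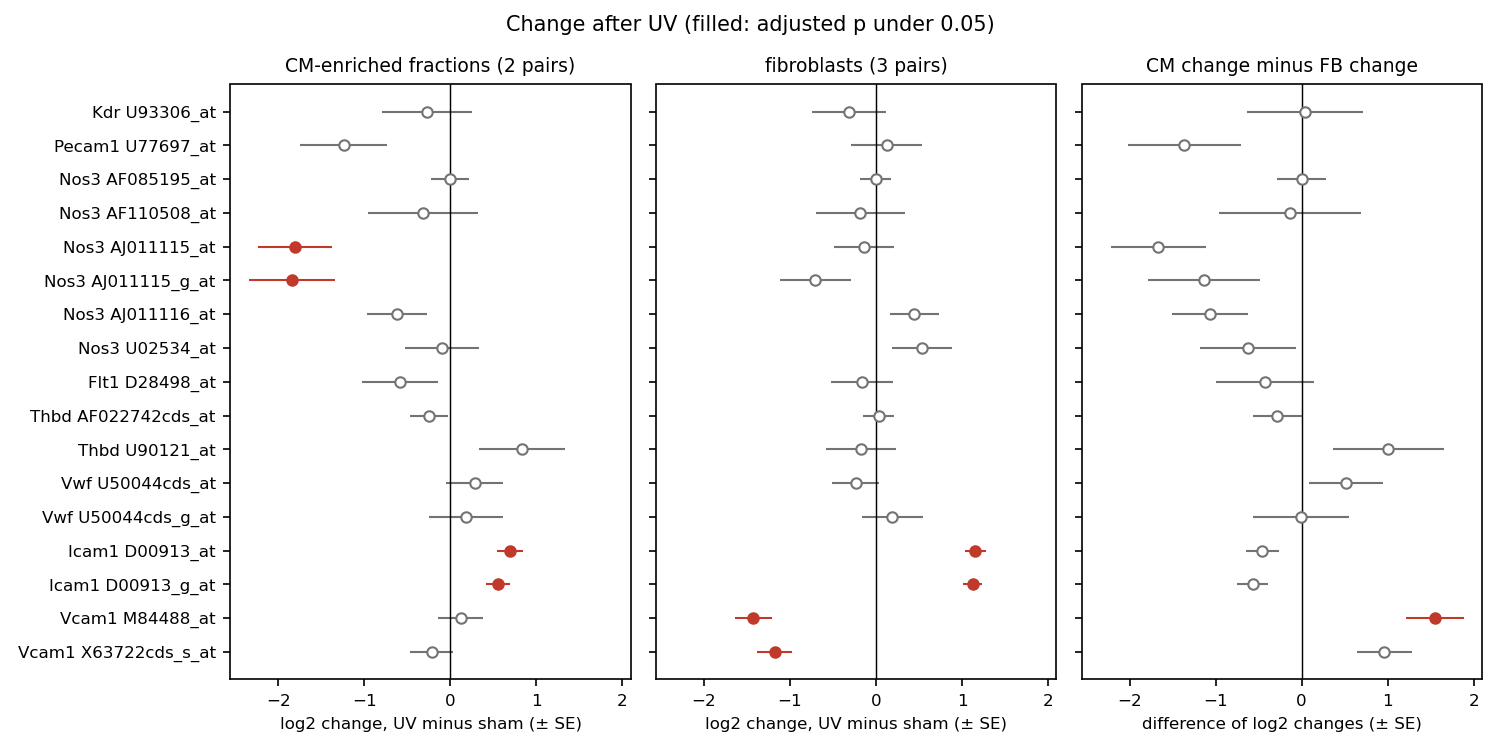
Log2 change of each of the 17 probe-sets after UV (x axis, UV minus sham-UV, with SE bars) in CM (2 pairs) and FB (3 pairs), and the CM change minus the FB change. Filled points have an adjusted p under 0.05: Icam1 lies to the right in both populations, Vcam1 to the left in FB, and Nos3 AJ011115_at and AJ011115_g_at to the left in CM.

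Nos3 fell in CM after UV on 2 of its 6 probe-sets. AJ011115_at had 6.88, 9.42 and 6.88 after UV, against 40.6 and 19.5 after sham-UV, a change of -1.81 (SE 0.43, adjusted p = 0.0122), with 2 of the 3 UV arrays at the floor. AJ011115_g_at had 23.8, 10.8 and 9.78 in UV CM and 59.3 and 56.0 in sham-UV CM, a change of -1.84 (SE 0.50, adjusted p = 0.0251). The other 4 lay between -0.62 and 0, and none passed. The 0 is that of AF085195_at, which was at the floor on all UV and sham-UV CM arrays and so could show no fall. With the floor at the 40th percentile neither of the 2 that fell passed (adjusted p = 0.368 and 0.0805). Leaving out replicate 1 or 2 leaves 1 pair. The 2 pairs moved by -2.56 and -1.05 on AJ011115_at and by -1.31 and -2.37 on AJ011115_g_at. In all, 4 of the 17 passed in CM, where 16.8% of all probe-sets did.

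The other endothelial markers did not pass after UV. Pecam1 had 77.5, 38.0 and 55.6 in UV CM, against 372 and 44.2 in sham-UV CM, so that the first pair differed far more than the second (-1.24, SE 0.51, adjusted p = 0.123), and on log2(value + 16) with no floor it was -1.10 (adjusted p = 0.049). Kdr had 48.8, 26.4 and 70.0 in UV CM and 49.0 and 38.6 in sham-UV CM (-0.28, adjusted p = 0.872). Flt1, Thbd and Vwf gave changes between -0.58 and 0.83 in CM, and with Kdr and Pecam1 between -0.31 and 0.19 in FB.

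Genes tied to the members by pathway were read after UV from lists, each gene by its brightest probe-set. The share over all probe-sets was again 16.8% in CM and 22.9% in FB. That share includes dim probe-sets, so a list share called above, near or below it is a description of unlike sets and was not tested. Of the angiogenic growth factors and co-receptors, which hold the vascular endothelial growth factors, the angiopoietins and the platelet-derived growth factors Pdgfa and Pdgfb (9 of 11 on the array), 1 rose and 3 fell in CM and 6 fell in FB, with medians of -0.54 and -0.77 against 0 over all probe-sets. Nrp1, a co-receptor of Kdr, had 129, 91.0 and 123 in UV CM, against 427 and 306 in sham-UV CM (-1.74, adjusted p = 1.73e-05), and fell by 2.29 in FB (adjusted p = 9.98e-08). Vegfb, a ligand of Flt1, fell in both (-0.54, adjusted p = 0.0106, in CM, and -0.77, adjusted p = 1.17e-04, in FB). Pgf, another ligand of Flt1, fell in CM (-1.39, adjusted p = 0.00633), Vegfd, a lymphangiogenic factor, fell in FB (-1.38, adjusted p = 6.65e-05), and Angpt2, an antagonist of the receptor Tek, fell in FB (-2.63, adjusted p = 2.15e-04). Pdgfa, a growth factor for mesenchymal cells, was the gene that rose in CM (0.91, adjusted p = 0.0104). It fell in FB (-0.70, adjusted p = 0.00962), and the difference between the populations was 1.61 (adjusted p = 0.00453).

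Of the NF-kappaB and cytokine genes (14 of 21 on the array), 2 rose and 1 fell in CM and 5 rose and 1 fell in FB, in CM a share near the 16.8% of all probe-sets and in FB above the 22.9%. Il6 was at 48.6, 35.7 and 50.4 in UV FB and at or near the floor in sham-UV FB, 2.68 higher on the log2 scale (adjusted p = 4.62e-06), and rose in CM by 1.03 (adjusted p = 0.0287). Irf1, a transcription factor of the interferon response, rose in both (1.65, adjusted p = 7.34e-05, in CM, and 1.16, adjusted p = 8.62e-05, in FB), and Nfkbia, the inhibitor that NF-kappaB itself induces, rose in FB (1.20, adjusted p = 0.00119). Nfkb1, which encodes an NF-kappaB subunit, fell in both (-0.99, adjusted p = 2.73e-04, in CM, and -1.07, adjusted p = 1.09e-05, in FB).

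Of the nitric oxide pathway (17 of 21 on the array), 1 rose and 8 fell in CM and 1 rose and 5 fell in FB, shares above the 16.8% and 22.9% of all probe-sets. Gucy1a1, a subunit of the nitric oxide receptor guanylate cyclase, fell in both (-0.80, adjusted p = 0.00147, in CM, and -1.99, adjusted p = 1.07e-07, in FB). Ddah1, which breaks down an inhibitor of nitric oxide synthases, also fell in both (-0.81, adjusted p = 0.00118, in CM, and -1.60, adjusted p = 5.21e-07, in FB). The caveolins, which bind nitric oxide synthases, fell too. Cav1 fell in CM (-1.24, adjusted p = 0.0122), and the muscle form Cav3 in FB (-1.28, adjusted p = 1.11e-04) and in CM (-0.65, adjusted p = 0.0467). Cav3 was higher in untreated CM than in untreated FB (2.97, 3.40 and 2.88 for unstretched, sham-IR and sham-UV cells). The part of the lower cardiac myocyte markers of UV FB in its fall there was not tested. Arg1, which uses up the arginine that nitric oxide synthases need, fell in CM (-2.52, adjusted p = 0.00208) and rose in FB (1.60, adjusted p = 0.00603), a difference between the populations of -4.12 (adjusted p = 0.00152).

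Of the thrombin, protein C and von Willebrand partners (14 of 23 on the array), 1 fell in CM, below the share of all probe-sets, and 3 rose and 3 fell in FB, above it. Plaur, the urokinase receptor, had 281, 217 and 205 in UV FB, against 88.6, 54.5 and 58.2 in sham-UV FB (1.83, adjusted p = 4.68e-06), and the CM change minus the FB change was -1.70 (adjusted p = 0.00239). F2r, a thrombin receptor, rose in FB (0.46, adjusted p = 8.15e-04), and Itgb3, an integrin subunit of platelets and endothelium, fell there (-0.88, adjusted p = 4.38e-04). Tissue factor, F3, which starts coagulation, fell in both (-1.55, adjusted p = 5.93e-04, in CM, and -0.73, adjusted p = 0.0116, in FB).

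Of the 17 other endothelial genes on the array, 1 rose and 3 fell in CM and 2 fell in FB, near the share of all probe-sets in CM and below it in FB. Klf4 rose in CM (1.26, adjusted p = 0.00207), while the transcription factor Ets1 (-1.43), Ece1, which matures endothelin (-0.96), and Acvrl1 (-0.80) fell there, and Edn1 (-0.94) and Aqp1 (-0.74) fell in FB. Of the leukocyte integrins that bind Icam1 or Vcam1, 3 of 6 are on the array. Itgam, at the floor on 27 of 35 arrays, passed in CM (-0.56, adjusted p = 0.0209) and Itgb1, a subunit of the Vcam1 receptor, in FB (-0.44, adjusted p = 0.0197).

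After IR none of the 17 probe-sets passed in either population, with 4 in CM and 1 in FB at an unadjusted p under 0.05, and the background itself was 0.732% in CM and 0.0801% in FB. Icam1 (D00913_at) had 99.3, 143 and 140.0 in IR CM, against 65.6, 125 and 132 in sham-IR CM, all 3 pairs moving up (0.29, SE 0.12, adjusted p = 0.39). Vcam1 (M84488_at) had 86.0, 78.5 and 98.6 in IR CM, against 70.9, 58.1 and 72.0 in sham-IR CM, groups that did not overlap (0.39, SE 0.21, adjusted p = 0.547). In FB the same probe-set had 153, 158 and 2778 after IR, against 197, 199.99 and 3217 after sham-IR, with all 3 pairs down (-0.31, SE 0.21, adjusted p = 0.887). The other Vcam1 probe-set, X63722cds_s_at, went the other way in FB, with 2 pairs up and 1 down (0.18, SE 0.20, adjusted p = 0.994).

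Pecam1 had 1206, 287 and 93.7 in IR CM, against 1324, 332 and 319 in sham-IR CM, so that the third pair gave most of the difference (-0.70, SE 0.41, adjusted p = 0.582). That irradiated array was the only CM array of the IR experiments in scan 1, the others being in scan 2, and with scan or array lot as a block again none of the 17 passed. Kdr had 466, 143 and 226 in IR CM and 265, 212 and 207 in sham-IR CM (0.13, SE 0.43, adjusted p = 1). Of the lists, Il1r1, the interleukin-1 receptor, was the only gene to pass after IR (-1.63 in CM, adjusted p = 0.0153).

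After MS no probe-set on the array passed in CM or FB (0% of 8740), members included, with 2 of the 17 in CM and 0 in FB at an unadjusted p under 0.05. Pecam1 had 166, 210 and 205 in stretched CM, against 188, 276 and 229 in unstretched CM (-0.25, SE 0.41), and Icam1 (D00913_at) had 193, 267 and 207 in stretched CM, against 195, 261 and 248 in unstretched CM (-0.08, SE 0.12). Vcam1 (M84488_at) had 78.8, 309 and 286 in stretched CM and 90.2, 278 and 274 in unstretched CM, where experiment 1 was low in both (0.01, SE 0.21). In FB, Icam1 had 147, 214 and 177 in stretched cultures and 179, 164 and 172 in unstretched cultures (0.05, SE 0.12). The 17 changes lay between -0.70 and 0.59 in CM and between -0.47 and 0.33 in FB. The differences of the change between the populations called none of the 17 after MS or IR either, with 1 and 2 at an unadjusted p under 0.05, of 0% and 0.0686% over all probe-sets.

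Over the 12 group means of log2 values, the probe-sets most like the brightest of a member, among 5210 candidates, were as follows. Pecam1 was closest to Igf2, an insulin-like growth factor (Pearson r = 0.98), and to Cxcr4, a chemokine receptor (r = 0.98). Kdr was closest to Plau, the urokinase gene (r = 0.97), to Ppp2r5a (r = 0.96) and to Notch1, a receptor that endothelium uses in sprouting (r = 0.96). Icam1 was closest to the protease Ctsk (r = 0.95) and Vcam1 to Hsd11b1, which regenerates glucocorticoids (r = 0.90). For the others the closest were Kcnj11 for Nos3 (r = 0.93), Begain for Thbd (r = 0.98), Slco1a4 for Flt1 (r = 0.91) and Trim3 for Vwf (r = 0.84). These are descriptions over means that share arrays, 2 populations and FB IR experiment 3, with no test.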

How the data were processed

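RNA from 35 samples was hybridised to Affymetrix rat GeneChips, and the authors deposited 1 linear intensity for each of 8799 probe-sets. They describe gcrma, VSN and a probe-level linear model, but these intensities are not that model's output and the software behind them is not given in the sources used here. Scan records, read only for scan and array lot, exist for 16 arrays. Arrays were scaled to a common 75th percentile, floored at the 20th percentile of all values (6.88), log2 transformed and quantile normalized, and 59 control probe-sets were left out. Of 8740 probe-sets, 7006 carry a single symbol in the annotation, 308 more than 1 and 1426 no symbol. The RefSeq gene table held 6985 of the single symbols.

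Changes were fitted with limma 3.58.1 in R 4.3.3 (lmFit, eBayes with trend) over all arrays, with each numbered experiment of a population and stress as a fixed block, leaving 11 residual degrees of freedom. Levels were fitted on 12 group means without a block. Tests were two-sided, adjusted by Benjamini-Hochberg over 8740 probe-sets, and their precision is limited by the number of arrays. The numbers come from the titles, and the methods state that control and stressed cells of an experiment were labelled together. Deviations from the group means within the 17 pairs correlated between 0.06 and 0.80, over 0.1 in 15. No 2 arrays held identical values. The study describes 3 independent experiments a stressor.

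All member probe-sets are named, with up to 4 genes of the smallest adjusted p from each list in each comparison described, other values of those genes, and further genes of the fibroblast IR experiment 3 chosen after their values were seen. Members and lists were chosen with earlier results of these data known. The model was tested on simulated data. Alternatives were another block or none, a higher or no floor, scaling only, a filter on dim probe-sets, no variance trend, scan and lot as blocks, control arrays only, and each replicate left out. Leaving out the FB arrays of IR experiment 3 or the CM arrays of IR experiment 1, and dropping both the block and those FB arrays, were chosen after seeing the data. Promoters are the 250 bases before the start from a RefSeq table (GRCr8), in which 50 bases after it were not printed.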

Additional observations from a re-analysis of the deposited data

Results flagged for a closer look

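For Vcam1 (M84488_at) after IR, all 3 CM pairs moved up and all 3 FB pairs moved down, and the CM change exceeded the FB change by 0.69 on the log2 scale. In the fit this difference did not pass (adjusted p = 0.547). The other Vcam1 probe-set, X63722cds_s_at, did not share the opposite directions. All 3 of its CM pairs moved up, but 2 of its FB pairs moved up and 1 down. Its CM change exceeded its FB change by 0.03. For Nos3 (AJ011116_at) after UV, both CM pairs moved down and all 3 FB pairs moved up, a difference of -1.07 that did not pass either (adjusted p = 0.202), and most FB values were at or near the floor. For Vcam1 (M84488_at) after UV, the CM change exceeded the FB change by 1.55, and the test of the difference passed (adjusted p = 0.0188) in the fit with the experiment as a block.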

How the results depend on the processing

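Of the 17 probe-sets, 4 were called after UV in CM, and 2 without the replicate block, with a random replicate block, with a floor at the 40th percentile, or with neither the block nor the arrays of FB IR experiment 3. Leaving out 1 replicate gave 1 to 3. In FB after UV, 4 were called, against 0 without the replicate block or with a random one. The difference between populations after UV had 1 call, and 0 without the block, with a random block, with scaling only, or with neither block nor FB IR experiment 3, and 0 to 2 with a replicate left out. Differences in level had 6 calls on unstretched plates (3 to 5 with a replicate left out) and 10 for sham-IR (5 to 8). For sham-UV there were 4, against 2 with a replicate block on control arrays, 1 with the 40th percentile floor, 7 without FB IR experiment 3 and 1 to 5 with a replicate left out. Collagen plates against sham had 1 call in CM, against 0 with the block or the 40th percentile floor, 2 without dim probe-sets, 4 without FB IR experiment 3 and 0 to 4 with a replicate left out, and 0 in FB, against 1 with the block or with scaling only. Vcam1 (M84488_at) in CM after UV, not called at 0.12, was at -0.26 with scaling only. It was at -0.64 without replicate 2 and at 0.87 without replicate 1. These 2 fits leave 1 UV CM pair each, and the 2 pairs themselves moved by -0.64 and 0.88. The cause of the other shifts was not tested. For Kdr on unstretched plates and for sham-IR, and Pecam1 for sham-IR, the call remained in all alternatives run. Dim probe-sets limit Nos3 and Vwf, and 2 or 3 arrays a group limit all results.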
